A study of Homo sapiens with 2 samples.

Results

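OTX2 peaks at the core promoters of protein-coding genes that do not share their promoter with a gene on the other strand were examined in D283 tumorspheres. A peak was included when its summit, the base with the most ChIP fragments, lay within 1 kb of the transcription start site (TSS) of such a gene on chromosomes 1 to 22. As TSS, the first base of the GENCODE gene record in GRCh38 was taken, and a gene was left out when a protein-coding TSS on the opposite strand lay within 1 kb of its own. This gave 7157 peaks, which were 5.34% of the 133985 peaks on these chromosomes and 5.21% of all 137412 peaks. Of 18978 protein-coding genes, 16397 (86.4%) had such a single promoter, and 6642 of them had at least 1 core peak.

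D283 is an established cell line from a human medulloblastoma, a tumour of the cerebellum, and was grown as floating tumorspheres in a neural proliferation medium with N2, B27, EGF and bFGF. The spheres were untreated OTX2+ controls. OTX2-bound chromatin was pulled down with a ChIP-grade OTX2 antibody (Abcam, ab21990), and an input library of the same cells without antibody served as the background. After duplicate removal the ChIP library held 61259377 fragments and the input 22521186. There was 1 ChIP library and 1 input library of 1 line with no replicates, so no test between conditions was possible, and every interval given is a 95% interval for counting error only. Chromatin from many cells was pooled, so binding in more cells and more frequent binding in each cell cannot be told apart. No expression was measured in these libraries, and the labelled cell type could not be checked against its marker genes.

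OTX2 is a homeodomain transcription factor that patterns the forebrain and midbrain, is needed for photoreceptor development in the retina, and is expressed in many medulloblastomas. Its DNA-binding domain recognises the core word TAATC followed by C or T, which it shares with its relative CRX, the factor that drives photoreceptor genes. A core promoter is the stretch around the TSS where general transcription factors and RNA polymerase II assemble. Many promoters of genes used in every cell are rich in GC boxes and ETS-factor sites, whereas a TATA box is more frequent at promoters with restricted use.

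The promoter sequences around selected summits are given first, from the RefSeq promoter windows on GRCh38.p14, written 5′ to 3′ on the strand of the gene. Each runs from 75 bases before the summit, so that the summit is base 76, to 75 bases after it, or to the base before the first annotated start where that came earlier. Capitals mark TAATCC or TAATCT on either strand, so that GGATTA and AGATTA are the same words read on the other strand. By the naming rule, KCNV2, a photoreceptor potassium channel subunit with one of the 10 highest fold enrichments, is shown beside ZNF512, a zinc finger gene at the median.
KCNV2, chr9:2717345-2717495, plus strand: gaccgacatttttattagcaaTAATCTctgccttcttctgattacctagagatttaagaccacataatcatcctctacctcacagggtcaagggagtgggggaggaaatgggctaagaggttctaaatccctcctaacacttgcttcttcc
ZNF512, chr2:27582857-27582968, plus strand: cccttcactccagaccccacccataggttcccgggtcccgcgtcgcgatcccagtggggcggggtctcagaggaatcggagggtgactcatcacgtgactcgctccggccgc
The next set holds the word close to the summit of a strong peak at genes of several functions. These and the following set were chosen after their values were seen. PDE6H encodes the inhibitory subunit of the cone phosphodiesterase, GUCA1A a photoreceptor calcium sensor, SEMA6C a transmembrane semaphorin, SOX4 a transcription factor of neural progenitors, RPS15 and RPS6 proteins of the small ribosomal subunit, and MRPS15 a protein of the mitochondrial one.
PDE6H, chr12:14972919-14973041, plus strand: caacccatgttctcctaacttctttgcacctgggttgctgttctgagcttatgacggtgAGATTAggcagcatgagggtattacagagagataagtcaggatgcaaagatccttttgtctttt
GUCA1A, chr6:42173188-42173338, plus strand: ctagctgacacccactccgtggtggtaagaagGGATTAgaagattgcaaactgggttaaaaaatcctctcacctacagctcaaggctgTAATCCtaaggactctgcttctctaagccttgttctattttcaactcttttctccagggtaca
SEMA6C, chr1:151146655-151146805, minus strand: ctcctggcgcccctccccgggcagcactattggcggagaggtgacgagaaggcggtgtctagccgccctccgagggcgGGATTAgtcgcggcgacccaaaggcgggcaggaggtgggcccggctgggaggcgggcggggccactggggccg
SOX4, chr6:21593562-21593712, plus strand: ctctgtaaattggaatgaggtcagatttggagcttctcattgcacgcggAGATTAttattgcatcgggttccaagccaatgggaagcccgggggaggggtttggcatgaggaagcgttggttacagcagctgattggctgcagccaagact
RPS15, chr19:1438190-1438340, plus strand: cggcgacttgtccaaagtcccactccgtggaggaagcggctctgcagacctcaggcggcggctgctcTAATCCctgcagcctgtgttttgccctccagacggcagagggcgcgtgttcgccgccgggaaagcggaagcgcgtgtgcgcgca
RPS6, chr9:19380273-19380423, minus strand: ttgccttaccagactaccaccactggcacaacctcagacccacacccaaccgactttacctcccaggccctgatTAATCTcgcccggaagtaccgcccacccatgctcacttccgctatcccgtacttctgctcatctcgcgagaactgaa
MRPS15, chr1:36464385-36464502, minus strand: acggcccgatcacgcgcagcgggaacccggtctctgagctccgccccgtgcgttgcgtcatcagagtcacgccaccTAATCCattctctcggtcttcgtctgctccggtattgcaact
The last set has strong peaks without either word in the stretch shown. TBR1 is a transcription factor of glutamatergic neurons and of the cerebellar nuclei, INCENP a subunit of the chromosomal passenger complex, and RPLP0 a protein of the ribosomal stalk.
TBR1, chr2:161416054-161416204, plus strand: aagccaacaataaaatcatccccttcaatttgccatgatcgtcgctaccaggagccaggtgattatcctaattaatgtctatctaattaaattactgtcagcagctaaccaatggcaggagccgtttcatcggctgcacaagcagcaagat
INCENP, chr11:62123780-62123930, plus strand: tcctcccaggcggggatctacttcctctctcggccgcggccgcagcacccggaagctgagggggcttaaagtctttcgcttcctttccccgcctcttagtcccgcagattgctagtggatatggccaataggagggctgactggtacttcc
RPLP0, chr12:120201236-120201315, minus strand: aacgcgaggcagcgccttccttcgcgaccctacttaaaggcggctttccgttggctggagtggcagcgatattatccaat
The distance from the summit to the centre of the nearest word was 13.5 bp at PDE6H, 15.5 bp at GUCA1A, which held 2 words, 5.5 bp at SEMA6C, 23.5 bp at SOX4, 5.5 bp at RPS15, 1.5 bp at RPS6 and 3.5 bp at MRPS15. At KCNV2 the word lay 51.5 bp from the summit. A match is a description of the letters only.

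The height is the number of ChIP fragments over the summit, which was the deposited pileup divided by the value of 1 fragment. The fold enrichment is the deposited ratio of pileup to local input at the summit, with 1 added to each. The local input had a floor of 3.98, and 2360 of the core peaks (33.0%) lay at or close to it. The length is that of the called region. The 10 single-promoter genes with the highest fold enrichment had mixed roles. MESP2, a transcription factor of somite segmentation, had the highest, with its summit 124 bp upstream of the TSS, 273 fragments (exact Poisson interval 242 to 307) and an enrichment of 40.5-fold. MLLT3, a chromatin reader of the super elongation complex, followed with 38.6 at 972 bp upstream. CD302, a C-type lectin receptor, had 37.8 at 311 bp upstream. These 3 peaks lay at very different distances from the TSS. PRTG, an immunoglobulin superfamily receptor of the early embryo, reached 36.8 at 961 bp upstream, and INTS5, a subunit of the Integrator complex, 35.7 at 92 bp upstream. KCNV2 had 301 fragments (268 to 337) at 90 bp upstream, 34.8 times the local input. HNRNPD, an RNA-binding protein of AU-rich messages, also had 34.8, with the summit 63 bp into its first exon.

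The other genes among the 10 were CLPB, a mitochondrial disaggregase, with a fold enrichment of 33.7 at 15 bp downstream, ARHGAP9 with 33.5 at 884 bp upstream, and FAM72D with 33.4 at 396 bp upstream. FAM72D has near-identical copies elsewhere on chromosome 1, so the gene its reads came from is uncertain. Thus 8 of the 10 summits were upstream and 2 downstream.

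The order by height was different, because the local input differed between loci. The tallest peak, with 442 fragments (402 to 485), lay 159 bp upstream of an unnamed gene (ENSG00000276418) on chromosome 8, but its fold enrichment was only 14.8 over a local input of 21.0. SMIM36, a small membrane protein, had 404 fragments and a fold enrichment of 26.9 at 40 bp upstream. CNGB3, a subunit of the cone cyclic nucleotide-gated channel, had 387 fragments and 19.9 at 133 bp upstream. SNRPE, a core protein of the spliceosomal snRNPs, had 374 fragments at 967 bp upstream, and FSBP, whose locus overlaps another gene, had 373 fragments at 64 bp upstream, with a fold enrichment of 10.2 over a local input of 26.0. Of these 5 peaks, 3 lay on chromosome 8. The median local input of the members on chromosome 8 was 6.55 on the pileup scale, against 5.00 for all members, and its part in the heights was not tested.

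The 5 longest members were at MYC, WDR74, LHX8, H2AC8 and PRKAB2. The peak at MYC, the proto-oncogene on chromosome 8, spanned 3558 bp (GRCh38, chr8:127733920-127737477), with its summit in an exon 748 bp downstream of the TSS. It had 228 fragments over a local input of 23.0, and its fold enrichment of 7.03 lay at percentile 70.4 of the members. WDR74, a ribosome biogenesis factor, had a peak of 3310 bp and a fold enrichment of 10.6. The peak at LHX8, a LIM homeobox gene of forebrain neurons, was 3176 bp long and ended before the TSS. H2AC8, a replication-dependent histone gene with near-identical copies, had 3155 bp, and PRKAB2, a regulatory subunit of AMP-activated kinase, 3081 bp.

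A typical member was far weaker. RPL22, DDX1, ZNF512, KCMF1 and EIF5B lay nearest the median, each 5.21 times a local input at its floor, with 34 fragments (23.5 to 47.5). Their summits lay 81 bp downstream at RPL22, 586 bp downstream at DDX1, 37 bp upstream at ZNF512, 712 bp upstream at KCMF1 and 798 bp upstream at EIF5B. RPL22 encodes a ribosomal protein, DDX1 an RNA helicase and EIF5B a translation initiation factor. At the edge of the window, PRICKLE1 with 3.23, ITIH5 with 3.44 and ART5 with 5.95 were just inside at 1000 bp. SYT6 with 2.85, ERLIN1 with 8.76 and TUBA1B with 6.42 were just outside at 1001 bp upstream.

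Which gene groups carried core peaks was examined with 13 lists. Over all 16397 single promoters, 40.5% of genes had a core peak (39.8 to 41.3) and 6.18% (1014 genes) had one of fold enrichment at least 10, and each list was read against these shares. The lists differed widely, from 90.0% of the mitosis regulators to 1.26% of the olfactory receptors.

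**Figure D1:**
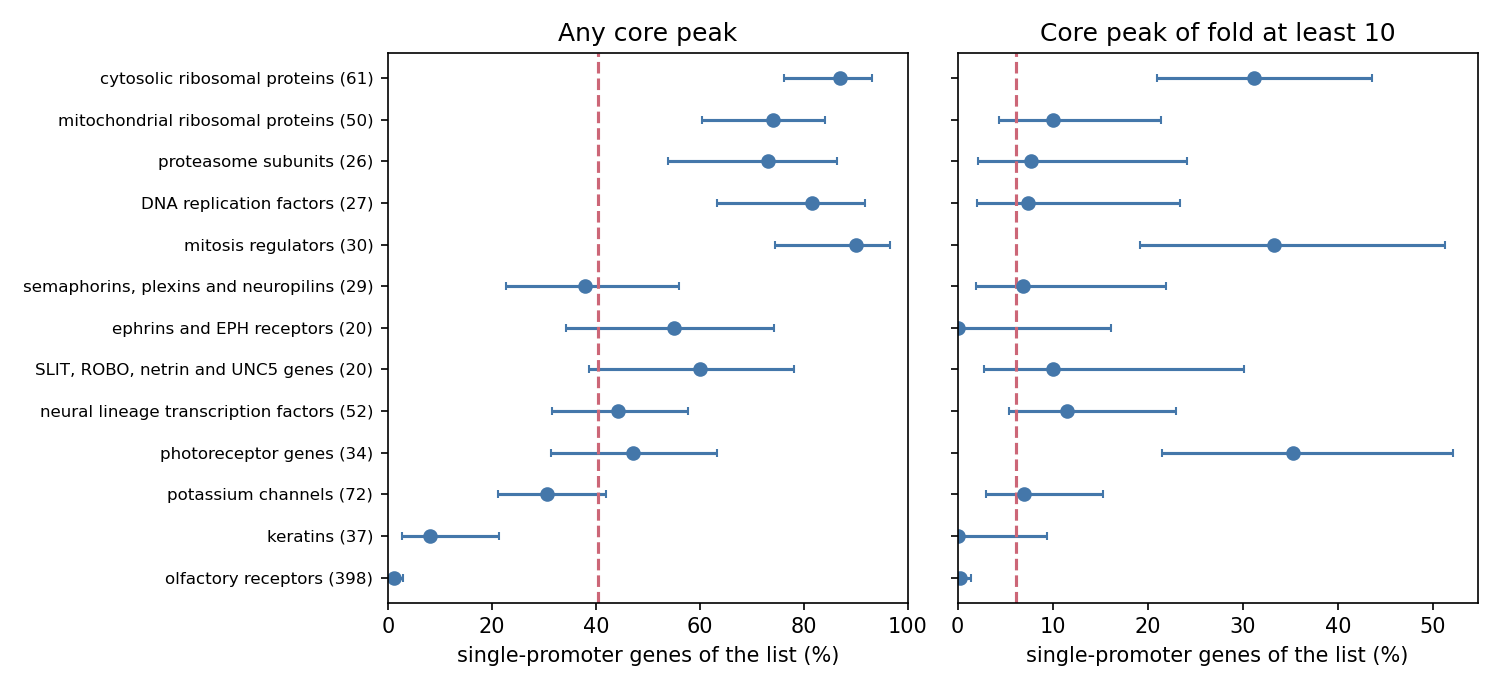
Share of the single-promoter genes of each list with any core OTX2 peak (left) or with one of fold enrichment at least 10 (right), in percent, with the number of such genes in brackets, Wilson 95% intervals as bars, and the share over all single promoters as dashed lines (40.5% and 6.18%). Photoreceptor genes lay near the dashed line on the left (47.1%) and far to its right on the right (35.3%). Olfactory receptors were low in both. Keratins were low on the left, but their interval on the right (up to 9.41%) includes the dashed line.

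For photoreceptor genes, the share with a strong peak lay further from the background than the share with any peak. Of 34 genes, 16 (47.1%, 31.5 to 63.3) had a core peak, but 12 (35.3%, 21.5 to 52.1) had one of fold enrichment at least 10. The median fold enrichment of the 16 was 13.6 and their median height 134 fragments, against 5.21 and 45 for all members. PDE6H was highest, with 28.0 and 224 fragments at 48 bp upstream. ABCA4, the retinoid transporter of outer segments, had 20.1 at 42 bp upstream, CNGB3 19.9 and GUCA1A 19.7 at 101 bp upstream. The phosphodiesterase subunits of rods (PDE6A) and cones (PDE6C) had 16.2 and 15.1, at 47 and 70 bp upstream. PRPH2, a structural protein of outer segment discs, and SAG, the rod arrestin, had 15.8 and 11.0, at 61 and 32 bp upstream.

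The 4 photoreceptor genes below a fold enrichment of 10 were GUCY2D, a retinal guanylate cyclase, with 9.64, GNAT2, the cone transducin, with 7.13, CNGB1, a rod channel subunit, with 6.76, and OPN1SW, the blue cone opsin, with 3.89. In 10 of the 16 genes (62.5%) the summit lay 1 to 100 bp upstream of the TSS, against 1380 of the 7157 members (19.3%). The exceptions included GNB3, a cone transducin subunit, at 625 bp downstream, GNAT2 at 892 bp downstream and TULP1, a photoreceptor transport protein, at 541 bp downstream. The sequence around the summit was held for 12 of these genes, and 11 of them had TAATCC or TAATCT within 50 bp of the summit. They were CNGB1, GUCA1A, GUCY2D, IMPG1, IMPG2, OPN1SW, PDE6A, PDE6C, PDE6H, PRPH2 and SAG. Over all summits with sequence the share was 11.7%, and over those of fold enrichment at least 10 it was 39.4%.

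Cytosolic ribosomal protein genes had peaks at most of their promoters. A core peak was present at 53 of 61 genes (86.9%, 76.2 to 93.2), of which 19 (31.1% of the 61) reached a fold enrichment of 10, and the median fold enrichment was 8.07. RPS15 had the highest at 23.1 with 155 fragments, followed by RPS6 with 18.6, RPLP0 with 17.6 and RPL32 with 16.5. Their summits were 93, 112 and 5 bp upstream and, for RPL32, 115 bp downstream. In contrast to the photoreceptor genes, TAATCC or TAATCT was found near the summit at 3 of 24 ribosomal protein genes with sequence. These were RPL35A, RPS15 and RPS6. The share over all summits with sequence was 11.7%, but it was 31.2% in the quartile group of highest fold enrichment, from 8.02 upwards. Neither list was matched to these summits in fold enrichment, so the shares are not compared at like strength.

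Mitochondrial ribosomal protein genes and proteasome genes also had more core peaks than the background. The intervals of their shares with a strong one include the 6.18% over all single promoters. Peaks were present at 37 of 50 mitochondrial ribosomal protein genes (74.0%) and 5 of them (10.0% of the list) were strong. MRPL1 had a fold enrichment of 16.6, MRPL24 12.3, MRPL12, whose peak also served a neighbouring gene, 10.9 and MRPS15 10.7. For the proteasome, the protease complex for ubiquitinated proteins, 19 of 26 genes (73.1%) had a peak and 2 (7.69%) a strong one, at PSMC4 with 11.4 and PSMB4 with 11.2. PSMA5 with 9.49 and PSMC3 with 8.13 followed.

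Most genes of mitosis also had core peaks. Of 30 mitosis regulators, 27 (90.0%, 74.4 to 96.5) had a peak and 10 (33.3%) a strong one, with a median fold enrichment of 7.10. CDC25C and CDC25A, the phosphatases that activate cyclin-dependent kinases, had 23.3 at 618 bp downstream and 18.8 at 902 bp upstream, INCENP had 20.1, and CCNA2, cyclin A2, 17.7 at 284 bp upstream. The 3 genes without a core peak were PLK1, BUB1 and NUF2. None of the 14 mitosis genes with sequence held TAATCC or TAATCT near the summit, against 11.7% of all summits with sequence. With 14 genes these shares cannot be told apart.

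DNA replication factors had a peak at 22 of 27 genes (81.5%). A strong one was present at 2 (7.41%), near the 6.18% over all single promoters. RPA3, a subunit of the single-stranded DNA-binding complex, had 25.1 at 769 bp upstream, and POLD2, a subunit of DNA polymerase delta, 11.0 at 761 bp downstream. The helicase subunits MCM6 and MCM3 had 9.83 and 7.85. GINS2, GINS4, RFC2, RFC5 and PRIM2 had no core peak.

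For the 3 axon guidance lists, the share with any core peak could not be told apart from the background. Peaks were present at 11 of 29 semaphorin, plexin and neuropilin genes (37.9%), 11 of 20 ephrin and EPH receptor genes (55.0%) and 12 of 20 SLIT, ROBO, netrin and UNC5 genes (60.0%), and all 3 intervals include 40.5%. SEMA6C was the strongest, with 26.6 and 211 fragments at 99 bp upstream, then PLXNA2, a plexin receptor, with 13.1 at 994 bp upstream. NRP2, a coreceptor for semaphorins, had 9.61 and SEMA3A, a secreted repellent, 7.72. ROBO4, a receptor of endothelial cells, had 26.0 at 353 bp downstream and NTNG2, a membrane-anchored netrin, 13.0 at 322 bp upstream, whereas NTN3 and SLIT2 had 4.48 each. No gene of the ephrin list reached a fold enrichment of 10 (0 of 20, with a Wilson upper bound of 16.1%). The highest there was EPHB3 with 8.38, followed by EFNA1 with 5.94, EPHA2 with 5.07 and EPHB1 with 5.05.

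Among neural transcription factors, 23 of 52 (44.2%, 31.6 to 57.7) had a core peak and 6 (11.5%, 5.40 to 23.0) a strong one. Both intervals include the shares over all single promoters, 40.5% and 6.18%. TBR1 had 24.2 with 196 fragments in a peak of 2370 bp, NEUROG1 and NEUROD1, the proneural bHLH factors, had 20.8 and 12.4, and SOX4 14.2. The peak at NEUROD1 also lay at the promoter of a second gene. OTX2 itself, named after its value was seen, had a fold enrichment of 3.95 with 50 fragments and a length of 1728 bp. The remaining strong ones in this list were MEIS1 with 11.8 and SOX9 with 11.1.

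Potassium channel genes had peaks at 22 of 72 promoters (30.6%, 21.1 to 42.0), 5 of them strong (6.94% of the list, 3.00 to 15.2). These intervals include the 40.5% and 6.18% over all single promoters. KCNV2 led with 34.8, then KCNN3, a calcium-activated channel, with 15.9, KCNF1, a modifier subunit, with 15.0 and KCNK10, a two-pore channel, with 12.9. Keratins of epithelia had peaks at 3 of 37 genes (8.11%), which were KRT80 with 7.57, KRT6C with 6.84 and KRT6B with 3.69. Olfactory receptors had peaks at 5 of 398 genes (1.26%), and only OR5I1 reached a fold enrichment of 10, with 10.7. OR5K1 with 8.75, OR5F1 with 6.95 and OR1N1 with 4.61 followed. Keratins and olfactory receptors are multigene families, so reads from near-identical copies could be misplaced.

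The summits of core peaks gathered just upstream of the TSS. In all, 4456 of 7157 summits (62.3%, 61.1 to 63.4) were upstream, the median position was 66 bp upstream (60 to 71), and 34.1% lay in the last 200 bp before the TSS, which is 10.0% of the window. Summits within 100 bp on either side made up 28.4%, against 10.0% of the window. The rest thinned out to between 1.06% and 1.80% per 50 bp from 200 bp downstream onwards. Downstream summits lay in an exon of the gene in 1462 cases (20.4%), in an intron in 1231 (17.2%) and beyond the end of a short gene in 8. The called region covered the TSS itself at 4298 peaks (60.1%). These had a median length of 618 bp and a median fold enrichment of 5.78, against 414 bp and 4.54 for the others. A longer region contains the TSS more easily, so the difference in length is in part by construction.

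**Figure D2:**
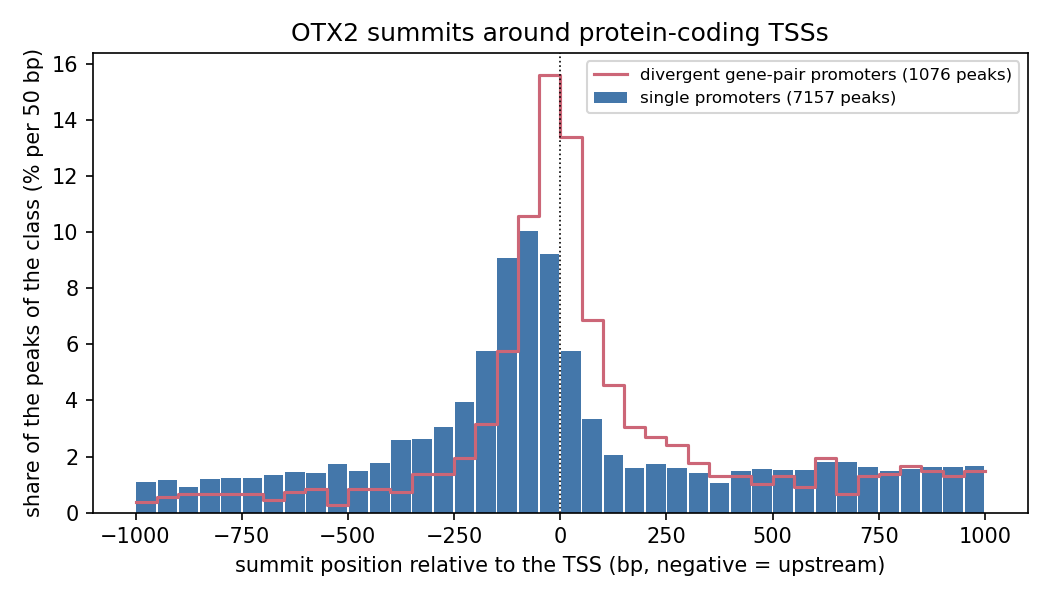
Share of summits per 50 bp (vertical axis, percent of the peaks of each class) by position relative to the TSS in bp, with negative values upstream, for the 7157 peaks at single promoters (bars) and 1076 at divergent gene-pair promoters (line). The bars peak between 51 and 100 bp upstream (10.0% of summits) and the line between 1 and 50 bp upstream (15.6%).

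At 1076 peaks of divergent gene pairs, where 2 genes start back to back, summits lay closer to the nearer TSS, with 46.7% within 100 bp, and 48.1% (45.2 to 51.1) were upstream. The distance to the nearer of 2 starts was taken, which favours short distances by construction. Upstream of one gene is near or inside the other there, so the sides are not comparable with those of a single promoter. Divergent genes also had a core peak more often, at 1890 of 2581 genes (73.2%), but the windows of both genes of a pair overlap by construction.

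The strength of a core peak varied with its place. Strong members, of fold enrichment at least 10, numbered 984 and were upstream in 70.0% of cases (67.1 to 72.8), whereas the 3336 members under 5 were upstream in 57.4% (55.7 to 59.1). The median fold enrichment was 5.54 in the last 200 bp before the TSS, 4.95 in the first 200 bp after it and 4.48 at its downstream end, beyond 800 bp. It was highest at the upstream end, though the interval of that median includes 5.54. The median there was 5.92 (5.21 to 6.31), between 801 and 1000 bp upstream, where PRTG, MLLT3, ARHGAP9 and SNRPE lie. The share of strong members was 22.3% (18.0 to 27.2) there, 15.1% in the last 200 bp before the TSS and 9.96% in the first 200 bp after it. The median local input in these bins was between 4.68 and 5.00.

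**Figure D3:**
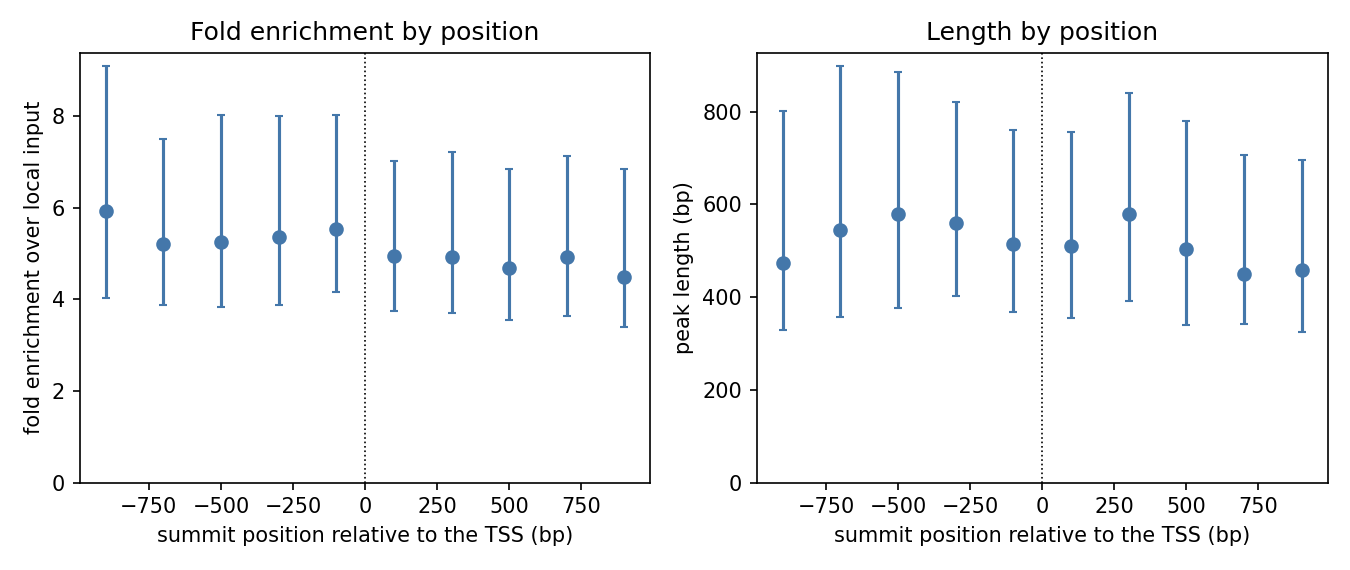
Fold enrichment (left) and peak length in bp (right) by summit position in 200-bp bins relative to the TSS, with medians as points and quartiles as bars, over the 7157 peaks at single promoters. The median fold enrichment ranges from 5.92 at the upstream end to 4.48 at the downstream end, while the quartiles of all bins overlap.

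Core peaks at single promoters were longer than other peaks, yet less enriched. Their median length was 517 bp (quartiles 360 and 786). It was 433 bp for the 4221 peaks 1 to 5 kb upstream of any protein-coding TSS. For all peaks on these chromosomes it was 441 bp. A length of at least 1000 bp was found for 14.3% (13.5 to 15.1), against 8.39% and 8.26%. In contrast, the median height was 45 fragments, against 48 and 53, and the median fold enrichment 5.21, against 5.54 and 6.10. A fold enrichment of at least 10 was reached by 13.7% (13.0 to 14.6) of the core peaks, 930 (20.8 to 23.3%) of those 1 to 5 kb upstream and 26.3% of all peaks. The median local input was 5.00 in each of these classes. Peaks of divergent promoters were close to those of single promoters, with a median length of 579.5 bp, 50 fragments and a fold enrichment of 5.66.

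**Figure D4:**
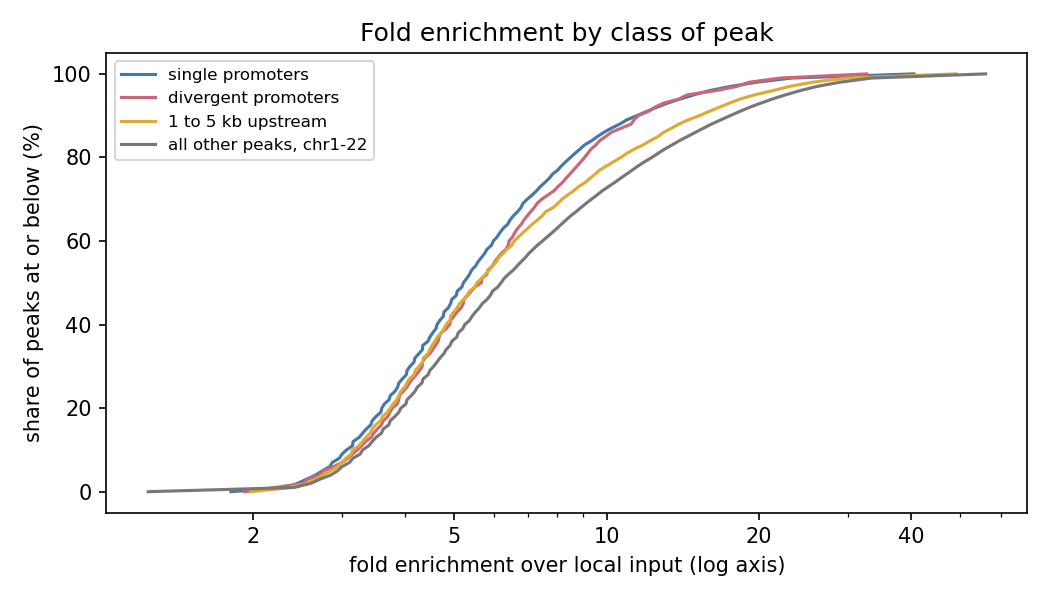
Cumulative share of peaks (percent) by fold enrichment over local input (log axis) for single promoters, divergent promoters, peaks 1 to 5 kb upstream and all other peaks on chromosomes 1 to 22. The medians are 5.21, 5.66, 5.54 and 6.19 in that order, and at percentile 80 the values are 8.49 and 9.05 for the promoter classes against 10.7 and 12.3.

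Length and strength went together among the members. The 3392 peaks under 500 bp had a median fold enrichment of 4.33, and 44.9% of them covered the TSS. The 254 peaks of at least 1500 bp, such as those at TBR1, HNRNPD and MLLT3, had 9.39, and 92.9% covered the TSS. A taller peak passes the caller's threshold over a longer stretch, so both measures share the same fragments. A longer region also covers the TSS more easily by construction.

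Most genes had a single core peak. Of 6642 genes, 5875 (88.5%) had 1, 755 (11.4%) had 2 and 12 had 3. With 2 peaks, the summits lay a median of 896 bp apart and flanked the TSS in 589 genes (78.0%), and the upstream one was the higher in fold enrichment in 420 (55.6%). Both summits had to lie within 1 kb of the TSS, so 2 summits this far apart mostly flank it by construction. Of the 12 genes with 3, the 5 with the strongest peak are named here, an order set after the values were seen. TMEM177, a mitochondrial membrane protein, had 27.0 at 971 bp upstream, 4.58 at 12 bp upstream and 13.7 at 929 bp downstream. SENP6, a SUMO protease, had 3.36, 4.25 and 13.8 at 555 bp upstream, 110 bp downstream and 991 bp downstream. GADD45GIP1 reached 12.7 at 952 bp upstream, LETM2 9.48 at 976 bp upstream and MAF1, a repressor of RNA polymerase III, 6.16 at 649 bp upstream. In 4 of these 5 genes the strongest peak was thus the farthest upstream, and at SENP6 it was the farthest downstream.

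Conversely, 6895 members served 1 gene, 260 served 2 and 2 served 3. Of the 262 shared ones, 230 lay near starts on the same strand, and 7 members were also within 1 kb of a divergent promoter. Around each single promoter, peaks more than 1 kb from every protein-coding TSS were also counted, here called distal peaks. Genes with a core peak had a median of 5 distal peaks within 50 kb (quartiles 3 and 8), and genes without one had 3 (1 and 6). No distal peak lay within that distance for 314 genes (4.73%) with a core peak and for 1505 (15.4%) without one. Both a core peak and a distal peak in that range were present for 6328 genes. In 910 of them (14.4%, 13.5 to 15.3) the strongest core peak had a higher fold enrichment than every distal peak. Most core peaks had several distal peaks to exceed, and the share that this number alone would give was not computed. Peaks at other promoters were not part of this comparison.

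Chromosomes differed in the share of single promoters with a core peak. It was 23.0% (20.3 to 26.1) on chromosome 7, 29.9% on chromosome 21, 30.5% on chromosome 16 and 33.7% on chromosome 11, and reached 50.0% (44.2 to 55.8) on chromosome 13. On chromosome 7 the median height of the members was 34 fragments, against 45 over all. Their median local input was 3.99, at the floor of 3.98, against 5.00 over all. Copy number was not measured in these files, and its part in the share was not tested. Members made up 20.2% of the peaks on chromosome 19 and between 3.52% and 9.34% on the other chromosomes.

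The letters at the summits were searched in the RefSeq windows, which span 250 bp before to 50 bp after a start. For 2154 members (30.1%) the 101 bp centred on the summit lay inside a window. The comparison was with 4884 promoters without a core peak, in 101 bp centred 97 bp upstream. TAATCC or TAATCT on either strand was present at 11.7% (10.4 to 13.1) of the summits and 4.18% (3.65 to 4.77) of the promoters without a peak. Its share was higher at higher fold enrichment, from 2.23% in the lowest quartile group of summits through 5.39% and 7.99% to 31.2% (27.4 to 35.2) in the highest. With a fold enrichment of at least 10 it was present at 125 of 317 (39.4%), and of at least 20 at 24 of 40 (60.0%, 44.6 to 73.7). The centre of the nearest word was within 25 bp of the summit for 199 of 252 peaks (79.0%).

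**Figure D5:**
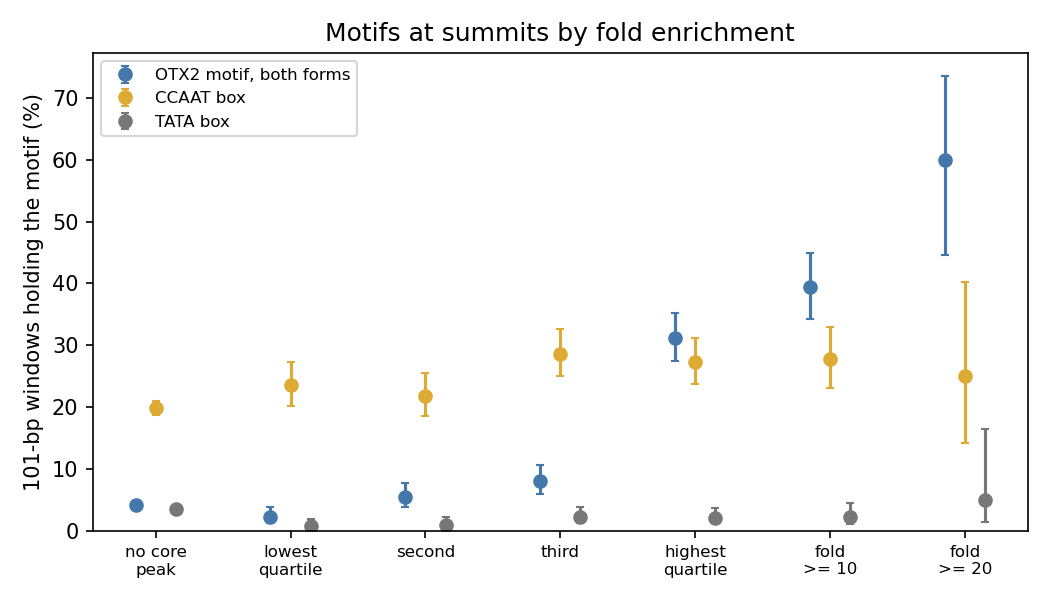
Share of 101-bp windows (percent, with Wilson 95% intervals) that hold on either strand the OTX2 motif in its C or T form, a CCAAT box or a TATA box, in 4884 promoters without a core peak and around 2154 summits by quartile of fold enrichment, and for summits of at least 10 and at least 20. The OTX2 motif goes from 2.23% in the lowest quartile group to 60.0% at a fold enrichment of at least 20, while the CCAAT box stays between 21.7% and 28.6% at the summits.

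The 2 words were the most frequent of the 16 that begin with TAAT in the highest quartile group. TAATCC was present there at 22.8% and at 1.30% in the lowest quartile group, and TAATCT at 9.28% and 0.928%. The next word, TAATTC, was at 4.64% and 1.86%. Other TAAT words were also more frequent in the highest group, such as TAATAT with 2.78% and 0.557%. TAATGA (1.67% in both) and TAATTA (1.48% in both) were not. The related word TAAGCC was present at 13.9% of the highest and 2.04% of the lowest quartile group, and TAAGCT at 5.94% and 2.41%. Each of these 4 OTX2-type words was thus more frequent at the strongest summits than at the weakest, with TAATCC showing the widest gap. A rise as such was not particular to them.

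Words of general promoters followed another pattern. GGGCGG, the GC box, was present at 41.9% of summits of the lowest and 35.8% of the highest quartile group, and at 32.3% of promoters without a peak. CCGGAAGT, an ETS-factor site, was present at 5.19% and 4.27%, against 0.737%. CCAAT was present at 23.6% and 27.3%, against 19.8%, and TATAAA at 0.742% and 2.04%, against 3.48%.

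In whole windows of 300 bp, held within 50 bp of the TSS for 8505 promoters (51.9%), TAATCC or TAATCT was present in 11.2% of all. It was in 11.0% of those without a core peak, 5.85% of those with a strongest peak under a fold enrichment of 5, 10.8% of those between 5 and 10, and 29.3% (25.6 to 33.2) of those of at least 10. For GGGCGG the shares were 57.2% of all windows, then 47.8%, 73.6%, 68.1% and 64.2%. CCGGAAGT was in 5.22% of all windows, then 2.58%, 8.32%, 9.14% and 9.09%, and TATAAA in 11.9% of all, then 15.4%, 6.37%, 6.85% and 9.45%. Promoters with a weak core peak were therefore those with the fewest OTX2 words and the most GC boxes.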

How the data were processed

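Reads of the ChIP and the input were aligned by the authors with Bowtie2 2.2.4 (GRCh38), and MACS2 2.1.0.20140616 was run with 0.05 as the largest q-value allowed and 2700000000 as the effective genome size. Deposited were, for each peak, a pileup, which is a coverage signal scaled to the input, a fold enrichment, which is a ratio to the local input, and the −log10 of the q-value. The study's methods state that peaks were masked for blacklisted regions, but whether the deposited list was masked could not be traced. After duplicate removal 61259377 of 84980793 ChIP fragments and 22521186 of 32292980 input fragments were left, a ratio of 2.72, so the shallower input limits the precision of the fold enrichment. One fragment equals a pileup of 0.735, and 100% of pileups were whole steps of it within a tolerance of 0.01.

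TSSs were computed from GENCODE 44, an annotation placed on GRCh37 that also lists the GRCh38 position of its exons. Only those were used, and 282 of 20176 protein-coding genes had none. RefSeq windows existed for 76.3% of single promoters, fewer than a check of a property over all of them needs, so a GC-content check is void and the motif shares hold for the windows held alone. Motifs were searched on both strands. Shares have Wilson 95% intervals, heights exact Poisson intervals. Analyses were run in Python 3.11.15 with scipy 1.17.1 and pandas 2.3.3, and plots drawn with matplotlib 3.10.9 and numpy 2.4.6. The assignment of peaks to promoters was tested on simulated peaks, where 200 of 200 placed peaks were found and 0 were wrong.

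Genes were named by rule. These were the 10 of highest fold enrichment, the 5 tallest and 5 longest peaks, the 5 nearest the median, the 3 nearest either side of 1 kb, up to 5 genes with the most peaks, and per list the 4 strongest and, where fewer than 6 lacked a peak, those without. A gene given outside these was chosen after its value was seen. The members and gene lists were chosen with earlier results of these data known. Other windows, thresholds, TSSs and chromosome sets were tried as alternatives.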

Additional observations from a re-analysis of the deposited data

How the results depend on the processing

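Over the 11 alternatives the number of members ranged from 3821 to 10045, against 7157. An opposite-strand distance of 500 bp or 2 kb gave 7360 or 6967 members, with 41.2% or 40.3% of genes. Shares and medians that moved beyond their counting interval follow. With a window of 500 bp the median fold enrichment was 5.31, the summits were upstream in 69.7% and 31.8% of genes had a core peak, and with 2 kb the last 2 values were 55.1% and 48.5%. Keeping peaks with a −log10 q of at least 5 gave 5.80, 64.3% and 35.4%. Keeping peaks of fold enrichment at least 5 gave 3821 members, 7.43, 66.5% and 23.3%. With the TSS of the Ensembl canonical transcript 71.2% of summits were upstream and 43.4% of genes had a peak, and with any overlap of at least 1 bp 59.3% and 43.6%. Without chromosome 7 the share of genes was 41.4%. Leaving out peaks of a local input of at least 3 times its floor, chosen after seeing the data, gave 39.4%. In all of these most summits were upstream. No paired analysis was possible because only one ChIP library and one input were made. The input depth limits the precision of each fold enrichment, and motif results cover only the promoters with a RefSeq window.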
